A study of Rattus norvegicus with 15 samples.

Results

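The arrays carried 9 probes of 8 genes of the interleukin 6 (IL-6) family that signal through gp130, among 5088 probes and 4153 named genes. They were taken as every probe whose annotated symbol was Il6, Ctf1, Cntf, Lif, Il6st, Il6r, Cntfr or Lifr. Lif had 2 probes and each other gene had 1, and all 8 genes matched the GRCr8 gene table under the same symbol. The cells were dissociated from L4 and L5 dorsal root ganglia (DRG) of juvenile rats and kept in Sato medium. Treated cells received 1.5 mM dibutyryl cAMP (dbcAMP), a membrane-permeable analog of cAMP, and control cells medium without it. The time labels of the 5 groups were 1, 3, 6, 12 and 18 h, with 3 arrays each, although the treatment protocol starts at 0 h and not 1 h. Wells were coated with poly-L-lysine or myelin, and which of them an array used is not given. On each of the 15 arrays the treated RNA carried Cy5 and the control RNA Cy3, and no array had the dyes exchanged, which leaves a probe's own dye bias in each of its ratios. The value of a probe is the log2 of the deposited ratio of treated over control RNA, and 0 means equal signal. Because only ratios were used, the level of a gene, and the presence of neurons or glia by their markers, could not be checked. The ratios also cannot tell fewer cells of a type from less RNA per cell.

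IL-6, cardiotrophin-1, ciliary neurotrophic factor (CNTF) and leukemia inhibitory factor (LIF) are secreted or released cytokines that share the signalling chain gp130, the product of Il6st. IL-6 first binds its own receptor, IL-6R, whereas LIF, cardiotrophin-1 and CNTF bring gp130 together with the LIF receptor, CNTF through the further chain CNTFR. The joined receptors activate JAK kinases, which phosphorylate STAT3 and other STAT factors. In injured sensory ganglia IL-6 is known for its induction after nerve lesion, with more modest changes in other members, and for its part in axon growth.

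The 250 bases before the annotated start of Il6 are shown because the gene carried the highest ratios of the family and because this stretch holds a cAMP response element. The sequence is that of RefSeq on GRCr8, chr4:5894576-5894825, minus strand, read 5′ to 3′ along the gene.
Il6: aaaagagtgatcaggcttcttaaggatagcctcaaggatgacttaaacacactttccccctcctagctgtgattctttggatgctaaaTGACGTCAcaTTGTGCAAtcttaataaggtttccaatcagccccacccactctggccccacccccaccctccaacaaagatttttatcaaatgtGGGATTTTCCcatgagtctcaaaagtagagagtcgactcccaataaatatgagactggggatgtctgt
The capitals mark, in order, the cAMP response element TGACGTCA, whose first base lies at -162 from the start, a match to the C/EBP motif TTGNGCAA at -152 and a match to the kappaB motif, in which the base after GGGA was left free, at -68. The matches do not overlap one another. Both strands were searched, together with the STAT motif TTCNNNGAA, which had no match in this window. The motifs were chosen with this sequence in view. Among 33469 promoters of the same table, searched in the same way, 1.59% held the cAMP response element, 2.29% the C/EBP motif, 0.314% the kappaB motif and 7.67% the STAT motif. The promoters of Ctf1, Cntf, Il6st, Il6r and Lifr held none of these letters in this window, and those of Lif and Cntfr were not analysed here. A match is a stretch of letters and says nothing of binding in these cells.

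Il6 was higher in treated than in control DRG cells at 6, 12 and 18 h, by 3.51, 4.30 and 3.63 times on average. At 1 h its log2 ratios on arrays 1, 2 and 3 were 0.14, 0.23 and 0.09. At 3 h they were 1.19, 0.64 and 1.09, and at 6 h 1.77, 1.90 and 1.76. At 12 h they were 2.26, 2.13 and 1.93. Every array of a later time stood above every array of the time before it as far as 12 h, by 0.41 between 1 and 3 h, 0.57 between 3 and 6 h and 0.02 between 6 and 12 h. At 18 h arrays 2 and 3 gave 3.25 and 2.83, the highest values of Il6 on any array, and array 1 gave -0.50, its lowest. The mean log2 ratio was 0.15 ± 0.07 (SD, n = 3) at 1 h, 0.97 ± 0.29 (SD, n = 3) at 3 h, 1.81 ± 0.08 (SD, n = 3) at 6 h, 2.10 ± 0.17 (SD, n = 3) at 12 h and 1.86 ± 2.05 (SD, n = 3) at 18 h. In limma, with p-values adjusted over all probes tested at a time, the adjusted p was 0.994, 0.522, 0.0488, 0.0149 and 0.0126 in the same order. At 6 h Il6 did not pass with any 1 array of that time left out (adjusted p from 0.133 to 0.191), with array medians centred (0.0507) or with plate medians centred (0.0629), and at 12 h it did not pass without array 1 (0.093) or array 2 (0.0683) of that time. Il6 stood 38th from the top of 5050 probes at 3 h, 8th of 5058 at 6 h and 4th of 5014 at 12 h.

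The difference of array 1 at 18 h from the mean of arrays 2 and 3 was -3.53 for Il6, which was 8th in size among 4931 probes. It was -0.60 for Ctf1, at place 1058, -0.30 for Il6st, at place 2316, and 1.14 for Cntfr, at place 264. The spread of a probe was estimated over all times, so this 1 array also entered the tests of Il6 at the earlier times. In turn, the narrow earlier arrays entered the test at 18 h. The standard error of Il6 at 18 h was 0.47 in the fit and 1.18 from the 3 arrays of that time alone. With only the arrays of 18 h, Il6 did not pass at that time (adjusted p = 0.243 in limma). With array 1 of 18 h left out of every comparison, Il6 passed at 3 h (adjusted p = 0.00074 in limma), at 6 h (6.55e-06) and at 12 h (3.36e-06), and its mean at 18 h was 3.04 (adjusted p = 2.37e-07), which is 8.20-fold. With array 2 or array 3 of 18 h left out instead, Il6 at 18 h did not pass (adjusted p = 0.125 and 0.106). These values are given as an alternative chosen after the data were seen.

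**Figure D1:**
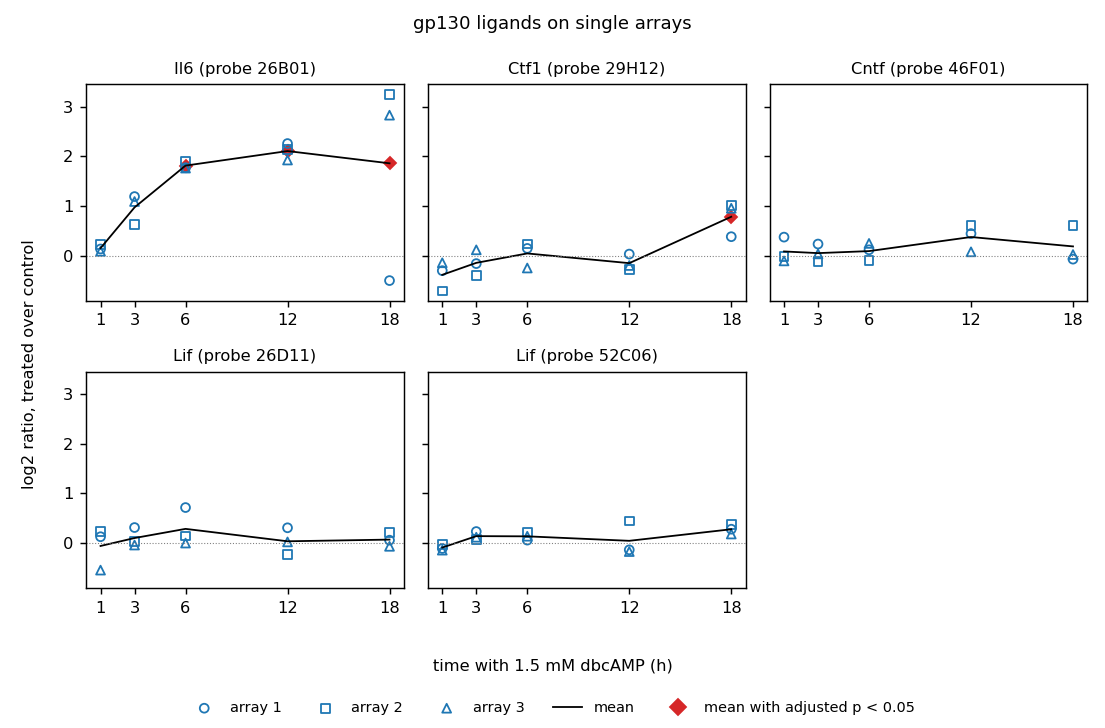
Log2 ratio of treated over control RNA for the probes of Il6, Ctf1, Cntf and Lif (vertical axis, one panel per probe) against hours of dbcAMP (horizontal axis), where circles, squares and triangles are arrays 1, 2 and 3, the line joins the means and a red diamond marks a mean with an adjusted p under 0.05 in limma. Il6 climbs from 0.15 at 1 h to 2.10 at 12 h with little spread and then splits, with array 1 of 18 h at -0.50 and the other arrays at 3.25 and 2.83, while Ctf1 lies above 0 on all 3 arrays only at 18 h.

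Ctf1, which encodes cardiotrophin-1, was higher in treated cells at 18 h alone among the 5 times, by 1.72 times. Its log2 ratios at 18 h were 0.39, 1.02 and 0.96 on arrays 1, 2 and 3. At 1 h they were -0.30, -0.71 and -0.14, so the arrays of 1 and 18 h did not overlap and had opposite signs. At 3, 6 and 12 h the values lay on both sides of 0, from -0.39 at 3 h to 0.24 at 6 h. The mean at 18 h was 0.79 ± 0.35 (SD, n = 3), with an adjusted p of 0.00289 in limma, and it passed with any of the 3 arrays of 18 h left out. The difference between 18 and 1 h was 1.17 (95% interval 0.69 to 1.64, adjusted p = 0.0136 in limma), the only one among the members to pass. It did not pass when the arrays of any 1 replicate number were left out (0.89 to 1.41, adjusted p from 0.0937 to 0.213).

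Cntf and Lif did not pass at any time. Cntf gave log2 ratios of 0.45, 0.61 and 0.08 at 12 h, where its mean of 0.38 was its highest (adjusted p = 0.147), and -0.07, 0.61 and 0.03 at 18 h. The 95% interval of its mean at 18 h ran from -0.13 to 0.51. From 1 to 6 h its ratios lay between -0.11 and 0.38, on both sides of 0 at each time. The probes of Lif were 26D11 and 52C06. At 18 h the first gave 0.06, 0.22 and -0.06, with an interval of the mean from -0.29 to 0.44, and the other gave 0.28, 0.37 and 0.19, with an interval from 0.03 to 0.53 (adjusted p = 0.099). Probe 52C06 was above 0 on all 3 arrays of 18 h and below 0 on all 3 of 1 h, while the arrays of probe 26D11 overlapped between these times. The mean of 52C06 at 1 h was -0.09, and all probes of its plate together had a median of -0.13 then. Under the alternatives this mean ran from -0.12 to 0.05. From 3 to 12 h the ratios lay between -0.22 and 0.72 on 26D11 and between -0.17 and 0.45 on 52C06. Centred on the median of its plate, probe 52C06 at 18 h was 0.61 and passed (adjusted p = 0.00409).

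Il6st, the gene of gp130, was higher in treated cells at 6, 12 and 18 h, by 1.62, 1.66 and 1.57 times. Its log2 ratios on arrays 1, 2 and 3 were 0.15, 0.09 and -0.19 at 1 h and 0.33, 0.40 and 0.42 at 3 h. They were 0.64, 0.90 and 0.56 at 6 h, 1.31, 0.56 and 0.34 at 12 h and 0.45, 0.90 and 0.61 at 18 h. All arrays from 3 h on were above all arrays of 1 h. The means were 0.70 ± 0.18 (SD, n = 3) at 6 h, 0.74 ± 0.51 (SD, n = 3) at 12 h and 0.65 ± 0.23 (SD, n = 3) at 18 h, with adjusted p of 0.0235, 0.0114 and 0.0091 in limma. At 3 h the mean was 0.38 (adjusted p = 0.37). Il6st did not pass without array 2 of 18 h (0.53, adjusted p = 0.0723), without array 1 of 12 h (0.45, 0.106) or with any 1 array of 6 h left out (0.066 to 0.119).

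Cntfr, the CNTF binding chain, was lower in treated cells at 12 and 18 h, by 2.16 and 2.01 times. Its log2 ratios were -1.19, -1.23 and -0.92 at 12 h and -0.25, -1.16 and -1.62 at 18 h. At 3 h they were -0.47, -0.79 and -0.34 and at 6 h -0.71, -0.18 and -1.85, which did not pass (adjusted p = 0.625 and 0.113). Cntfr was already at -1.08, 0.01 and -0.45 at 1 h, and 14 of its 15 ratios were below 0. The means were -1.11 ± 0.17 (SD, n = 3) at 12 h (adjusted p = 0.034 in limma) and -1.01 ± 0.70 (SD, n = 3) at 18 h (adjusted p = 0.0245), and the arrays of 18 h overlapped those of 1 h. At 18 h it did not pass without array 2 (-0.93, 0.101) or array 3 (-0.71, 0.18), nor at 12 h with any 1 array left out (0.0567 to 0.147). All probes of its plate together had a median of -0.34 at 12 h and -0.44 at 18 h on the log2 scale, and with that median taken off, Cntfr was -0.78 (adjusted p = 0.0685) and -0.62 (0.0812).

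Il6r, the IL-6 binding chain, and Lifr, the LIF receptor, did not pass at any time. The log2 ratios of Il6r at 18 h were -0.66, -0.59 and -0.23, a mean of -0.49 (95% interval -0.86 to -0.12, adjusted p = 0.0598). At 6 h it had a ratio on 2 of 3 arrays, of 0.09 and 0.12, and at 1 and 3 h its ratios lay between -0.27 and 0.04. At 12 h they spread over -0.15, 0.61 and -0.52. Those of Lifr were -0.13, -0.23 and 0.12 at 18 h (interval of the mean -0.72 to 0.56) and -1.66, 0.77 and -0.23 at 12 h, a wider spread than at its other times. From 1 to 6 h they lay between -0.37 and 0.25.

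**Figure D2:**
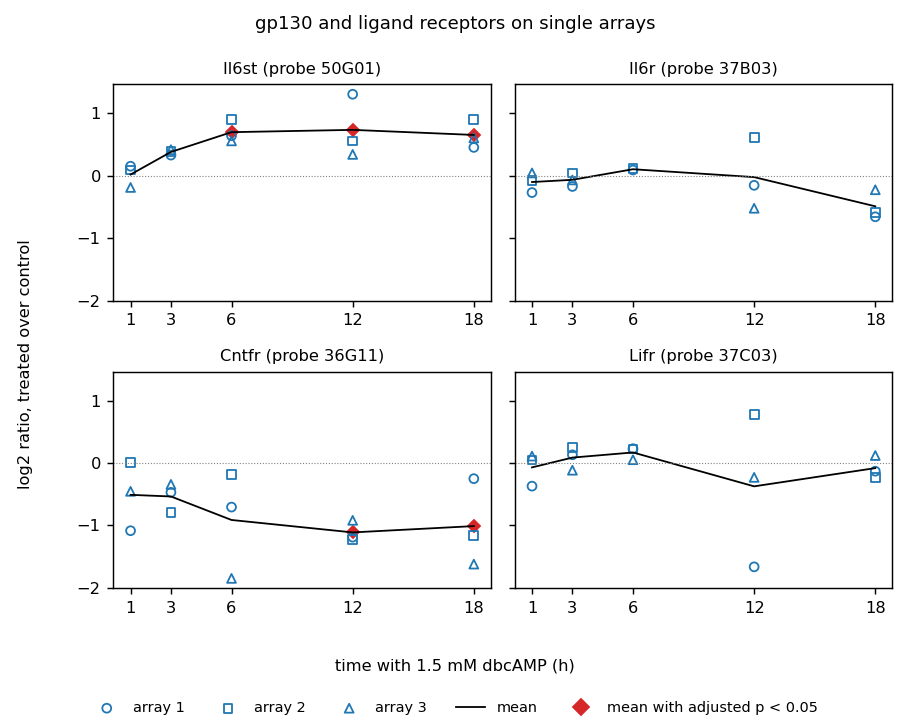
Log2 ratio of treated over control RNA for the receptor probes of Il6st, Il6r, Cntfr and Lifr (vertical axis, one panel per probe) against hours of dbcAMP (horizontal axis), where circles, squares and triangles are arrays 1, 2 and 3, the line joins the means and a red diamond marks a mean with an adjusted p under 0.05 in limma. Il6st leaves 0 by 3 h and stays between 0.33 and 1.31, Cntfr lies below 0 on 14 of 15 arrays, and Il6r is below 0 on all 3 arrays at 18 h.

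Of the 9 probes, 3 were higher at 18 h (Il6, Ctf1 and Il6st) and 1 was lower (Cntfr), where 22% of all probes tested at that time were called, 10.6% as higher and 11.3% as lower. At 12 h 2 were higher (Il6 and Il6st) and 1 was lower (Cntfr), against 8.58% of all probes, 3.81% as higher and 4.77% as lower. At 6 h Il6 and Il6st were higher, against 4.19% of all probes, 1.84% as higher and 2.35% as lower. At 1 h limma called 0 of the 9, against 2.33% of all probes, 0.732% as higher and 1.6% as lower. At 3 h it also called 0, against 2.87%, 0.931% as higher and 1.94% as lower, with 1 member under an unadjusted p of 0.05 at each of these times, Ctf1 at 1 h and Il6st at 3 h. The methods' t-test, unadjusted, called 0 of the 9 at 1 h and 2 at 3 h, against 12.9% and 15% of all probes. The median log2 ratio over the 9 probes was -0.07 at 1 h and 0.19 at 18 h, beside 0.02 and 0.01 over all probes.

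**Figure D3:**
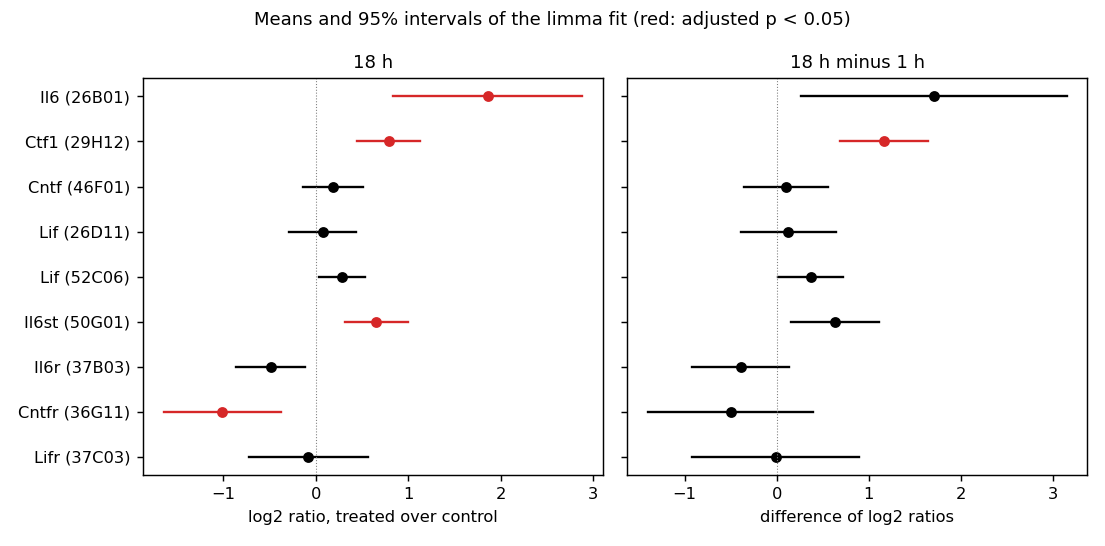
Points and bars are limma means with 95% intervals (horizontal axis) for each of the 9 member probes (vertical axis), for the log2 ratio of treated over control RNA at 18 h on the left and for its difference between 18 and 1 h on the right, in red where the adjusted p was under 0.05. At 18 h the intervals of Il6, Ctf1, Il6st and Lif probe 52C06 lie above 0 and those of Cntfr and Il6r below it, with Lif and Il6r not in red, the interval of Il6 from 0.84 to 2.88 is the widest, and on the right Ctf1 at 1.17 is the probe in red.

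A difference between 2 times removes a dye bias that is constant. For 18 against 1 h, 2.74% of all probes passed, 1.18% as higher and 1.56% as lower, and 1 member, Ctf1. Il6 differed by 1.70 (95% interval 0.26 to 3.15, adjusted p = 0.219) and Il6st by 0.63 (adjusted p = 0.158), and the arrays of Il6st did not overlap between these times. Cntfr differed by -0.50 (adjusted p = 0.609) and Il6r by -0.39 (0.464). Without array 1 of 18 h, Il6 differed by 2.88 and passed (adjusted p = 9.04e-06). For 6 against 1 h and 12 against 1 h, contrasts added after the values were seen, limma called 0 members. Of all probes it called 0.139% for 6 against 1 h, 0.0992% as higher and 0.0397% as lower, and 0.3% for 12 against 1 h, 0.14% as higher and 0.16% as lower, with 2 members, Il6 and Il6st, under an unadjusted p of 0.05 in each. Il6 differed from 1 h by 1.66 at 6 h and 1.95 at 12 h (adjusted p = 0.864 and 0.419) and Il6st by 0.68 and 0.72 (0.719 and 0.397), and for both genes the arrays did not overlap with those of 1 h. Without array 1 of 18 h both differences of Il6 passed (0.000994 and 0.000322). The F test over the 5 times called 0 members, against 1.87% of all probes, with 2 members under an unadjusted p of 0.05 (Ctf1, adjusted p = 0.061, Il6st, 0.286). Without array 1 of 18 h it called Il6 (adjusted p = 7.66e-05) and Ctf1 (0.0464).

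A mixed list for gp130 signalling held JAK, STAT, adaptor and downstream kinase genes. It also held genes of the SOCS and PIAS families, phosphatases and the proteases Adam10 and Adam17, so its share of calls is not that of the signal carriers alone. The list was taken as 39 genes, of which 24 were on the arrays with 25 probes. At 18 h 3 of these probes were higher, 4 were lower and 18 did not pass, 28% called against 22% of all probes, with a median log2 ratio of -0.02. Ptpn6, the phosphatase SHP-1, which dampens cytokine receptor signalling, was higher at 0.54 (adjusted p = 0.00393). Adam17, the protease that sheds IL-6R from the cell surface, was higher at 0.46 (0.00682). The probes of Stat5a disagreed, at 0.65 (adjusted p = 0.0345) on probe 7H01 and -1.24 (0.000154) on probe 47A04, and the first lost its call without array 1 or 3. Also lower were Map2k2, the kinase MEK2, at -0.87 (0.000283), the kinase Jak3 at -0.69 (0.00466) and Cish, a feedback inhibitor of the SOCS family, at -0.80 (0.0319), which lost its call without array 1 or 2. Map2k2 and Jak3 were at -0.74 and -0.55 already at 1 h, and Map2k2 lost its call at 18 h when its plate was centred (-0.48, adjusted p = 0.0607). Stat3, the main STAT of this family, was at 0.31 and did not pass (adjusted p = 0.0778), nor did Pik3r1 at -0.41 (0.0848) or Adam10 at -0.42 (0.119). No probe named for the 12 further ligands and receptors of the family that were looked for, among them Osm, Osmr and Il11, was analysed here.

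Genes known to answer IL-6 or STAT3, acute phase proteins included, were taken as 46 genes, of which 39 were on the arrays with 45 probes. At 18 h 8 probes were higher, 6 were lower and 31 did not pass, 31.1% called against 22% of all probes, with a median log2 ratio of -0.08. Higher were Hif1a, the oxygen-sensing factor, at 1.05 (adjusted p = 0.000721), the inducible nitric oxide synthase Nos2 at 1.00 (0.00136), the acute phase protein Crp at 0.82 (0.00898), the transcription factor Myc at 0.58 (0.00135), the survival protein Mcl1 at 0.50 (0.0425), the glial filament Gfap at 0.38 (0.0235) and the protease inhibitor Timp1 at 0.37 (0.0157). Lower were Sprr1a, a regeneration-associated gene, at -1.58 (0.00209), the fibrinogen chain Fgg at -1.25 (0.00184), the neuropeptide galanin, Gal, at -0.76 (0.00156) and the interferon factor Irf1 at -0.50 (0.0437). Vegfa was called in both directions, at 0.81 on probe 25C10 and -1.37 on probe 52C12, and Ccnd1, cyclin D1, was at -1.45 on probe 53G02 and at 0.46 (0.0888) on probe 30F03. The lower probes of both genes were at -1.24 and -2.44 already at 1 h, and Sprr1a was at -0.76 then. All probes of the plate that holds Sprr1a and Vegfa probe 52C12 together had a median of -0.34 at 18 h. Cebpb at 0.47 (0.0589), the copper carrier Cp at -0.37 (0.0592) on probe 45F01 and the endotoxin-binding Lbp at 0.53 (0.0668) did not pass. Crp lost its call without array 3 of 18 h, Timp1 and Mcl1 without array 1 or 2, Gfap without array 2 or 3 and Irf1 with any 1 array left out.

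Some targets passed earlier, in both directions. The lower probes of Ccnd1 and Vegfa passed at all 4 earlier times, at -3.37 and -2.89 at 3 h (adjusted p = 2.82e-06 for both) and -2.60 and -1.07 at 12 h, and the haptoglobin gene Hp was lower at 12 h (-0.66, 0.0187). Junb was higher at 3 h (0.60, adjusted p = 0.0161) and 6 h (0.72, 0.00428), and Klf4 at 3 h (0.69, 0.0189). Timp1 was higher at 6 h (0.57, 0.00462) and 12 h (0.64, 0.00158), Myc at 6 h (0.44, 0.0275) and Hif1a and probe 48E08 of Cp at 12 h (0.72, 0.0202, and 0.60, 0.0456). Over the list the counts higher and lower were 0 and 2 at 1 h, 2 and 2 at 3 h, 3 and 2 at 6 h and 3 and 3 at 12 h. In the same order 4.44%, 8.89%, 11.1% and 13.3% of its probes were called, against 2.33%, 2.87%, 4.19% and 8.58% of all probes. Socs3, the feedback inhibitor that STAT3 induces, was counted in the signalling list and not in this one. It was at 0.39, 0.44 and 0.42 at 3, 6 and 12 h and passed at none of them. Its arrays gave 0.00, 0.37 and -0.26 at 1 h and 0.38, -0.30 and 0.61 at 18 h.

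Factors known to act on the Il6 promoter were taken as 29 genes, of which 17 were on the arrays with 20 probes, and Junb, Cebpb, Cebpd and Egr1 of these also stand in a list above. At 18 h 1 probe was higher, 5 were lower and 14 did not pass, 30% called against 22% of all probes, with a median log2 ratio of -0.09. Fosl1, an AP-1 subunit, was higher at 0.71 (adjusted p = 0.00763), and lost its call without array 1 (0.0703). Atf3, a stress-induced factor of the CREB family that is also known as a nerve injury gene, was lower at -2.90 (3.64e-09). Both probes of Creb1, which encodes the factor that binds the cAMP response element, were lower, 52F09 at -0.81 (0.00159) and 7D04 at -0.63 (0.00692), the latter not without array 2 (0.067). At 1 h these probes were at -0.29 and 0.18 and did not pass. All probes of the plate of 52F09 together had a median of -0.34 at 18 h. Nfkbia, the inhibitor of NF-kappaB, was lower at -0.60 (0.00347), and Cebpa at -0.96 (0.0134), which lost its call without array 1 (0.14). Nfkbib at 0.45 (0.0518), Cebpb and Atf4 at 0.25 (0.0863) did not pass. At 12 h Atf3 was already lower (-1.19, adjusted p = 2.93e-05 in limma) and Fosl1 higher (0.63, 0.0351). Junb, given above, was the call of this list at 3 and 6 h. At 1, 3, 6 and 12 h 0%, 5%, 5% and 10% of its probes were called, against 2.33%, 2.87%, 4.19% and 8.58% of all probes.

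**Figure D4:**
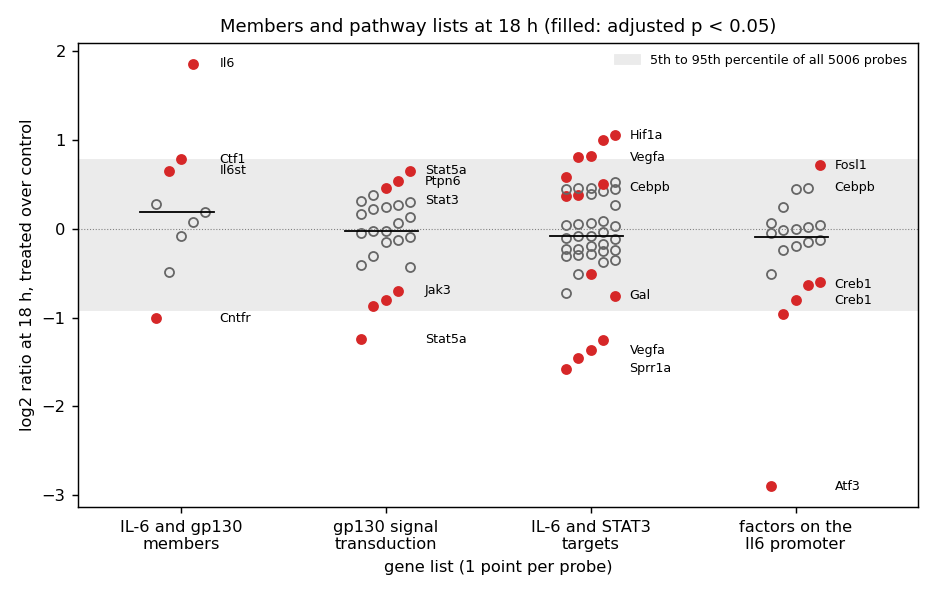
Mean log2 ratio of treated over control RNA at 18 h (vertical axis) of each probe of the members, the gp130 signalling list, the target list and the Il6 promoter factors (columns), with filled points for an adjusted p under 0.05 in limma, a line at each median and a grey band from the 5th to the 95th percentile of all 5006 probes. Il6 at 1.86 is the highest point and Atf3 at -2.90 the lowest, and each of the 3 lists holds called probes on both sides of 0.

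Each list of cell type markers held probes called higher and probes called lower at 18 h, when 22% of all probes were called. Of 17 probes for sensory neurons 1 was higher and 4 were lower (29.4% called), with a median log2 ratio of -0.13. Of 17 for Schwann cells and satellite glia 3 were higher and 4 lower (41.2% called, median -0.17), and of 10 for fibroblasts 1 and 3 (40%, -0.19). Of 8 for macrophages 2 were higher and 1 lower (37.5%, -0.03), and of 11 for endothelium 1 and 1 (18.2%, 0.04). Both called endothelium probes were of the same gene, Nos3, with 11H09 at 0.80 and 52A02 at -0.83. The higher probe for sensory neurons was 27F06 of Nefl at 1.03, and the other probe of Nefl, 52A12, was at -0.01. Gfap, counted among the targets, is also a glial marker here. The part of these cell types in the values of the family was not tested.

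The probes whose ratios followed Il6 most closely over the 15 arrays, by Pearson's r as a description, were those of Kdr (0.81), Lipf (0.78), Or1e16d (0.77), Muc4 (0.74) and Gcsh (0.74). The lowest were Pcdh8 (-0.82), Olr1523 (-0.80) and Tnfrsf11b (-0.77). None of these 8 passed at any time in limma. Il6st was 13th, at 0.70, among 4383 named probes, Ctf1 was at 0.56 and Cntfr at -0.59. On the 12 arrays of 1 to 12 h other probes came first, Sod3 (0.95), Timp1 (0.93), Cbr1 and Tnfaip6 (0.92 each) and Slpi (0.91), and Il6st was 17th, at 0.81. With all 15 arrays scaled to a common spread the first were St3gal5 (0.81), Sod3 (0.78), Phlda1 (0.76), Cebpd (0.75, on 14 arrays) and Fut2 (0.73), Il6st was 10th, at 0.71, Ctf1 was at 0.47 and Cntfr at -0.21. The points of such a comparison share their arrays, and these differed in width. Over all probes the log2 ratios had an SD between 0.357 and 0.434 on 9 arrays, and between 0.627 and 0.703 on array 3 of 6 h, arrays 1 and 2 of 12 h and every array of 18 h.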

How the data were processed

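RNA of treated and control cells was labelled with Cy5 and Cy3 and hybridised together to spotted oligonucleotide arrays, 3 per time. The values deposited by the authors are linear ratios (treated divided by control), 1 for each probe on an array. How background, normalization and filters were handled before that is not given in the sources read for this work. The log2 of each ratio was taken with no further centring, as array medians lay between 0.997 and 1.02. Probes were named through the platform annotation, and probes of a gene were kept apart. Each probe with at least 2 ratios at a time was tested against 0 with limma 3.58.1 (R 4.3.3), in a single fit of all 15 arrays that estimated a mean for each time, and with Benjamini-Hochberg adjustment over all probes tested. All tests were two-sided at 0.05. Further tests compared 18 with 1 h and, by F, all times. The fit was tested on simulated data.

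The members, lists and motifs were chosen with earlier results of these data known. Named were every member, the list members past the threshold at 18 h, up to 3 others of smallest p, and the 5 highest and 3 lowest probes by r to Il6. List genes named at earlier times were chosen after their values were seen. Whether the 3 arrays of a time are separate cultures is not stated, and p-values therefore reflect only array-to-array spread, which may be technical. The number of arrays limits the precision. Alternatives were array centring, a common array spread, the compared arrays alone, a replicate block, array weights, plate centring, a robust prior (statmod 1.5.0), other handling of missing ratios and of probes of 1 gene, the methods' t-test, and leaving out arrays. Plots used matplotlib 3.10.9.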

Additional observations from a re-analysis of the deposited data

Results flagged for a closer look

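Ctf1 differed between 18 and 1 h by 1.17 on the log2 scale (adjusted p = 0.0136 in limma), with every array of 18 h above 0 and every array of 1 h below it. For probe 52C06 of Lif all arrays of 3, 6 and 18 h were above 0 and all of 1 h below it, with differences from 1 h of 0.23, 0.23 and 0.37. The differences at 6 and 18 h did not pass (adjusted p = 0.999 and 0.273 in limma) and the difference at 3 h was not tested. All probes of the plate of 52C06 together had a median of -0.13 at 1 h, where the mean of this probe was -0.09. For Il6r all arrays of 18 h were below 0 and both arrays of 6 h with a ratio above it, a difference of -0.59 that was not tested.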

How the results depend on the processing

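Over 72 values of the members, no called value changed sign under any alternative, while 55 comparisons with an alternative lost a call, 25 gained one and 38 changed the sign of a value that was not called as reported. One of these, Lifr at 12 h, was 0.27 without array 1 of that time and -0.95 without array 2, where it passed (adjusted p = 0.05 after rounding). The count of member probes called at 3 h, 0 as reported, was 2 with a common array spread, 3 with only the arrays compared, 2 with array weights, 2 with the methods' t-test unadjusted (15% of all probes) and 1 without array 1 of 18 h. At 6 h the count of 2 became 1 with array medians centred, with only the arrays compared, with plate medians centred and with the replicate block. At 12 h the count of 3 became 1 with only the arrays compared and 1 with array weights. At 18 h the count of 4 became 0 with a common array spread, 0 with only the arrays compared and 2 with the methods' t-test unadjusted, which called 18.1% of all probes. Of those 4, Il6st passed this t-test (unadjusted p = 0.0381). Il6 (0.257), Ctf1 (0.0596) and Cntfr (0.129) did not, so the 2 include a probe that was not among the 4. For 18 against 1 h the count of 1 became 0 with a common spread, 0 with only the arrays compared, 3 with the t-test unadjusted (15.9% of all probes) and 2 without array 1 of 18 h, and the F test called 2 in place of 0 without that array. After Benjamini-Hochberg the methods' t-test called 0 members at 6, 12 and 18 h and for 18 against 1 h, and 0 probes of each list at 18 h. With 1 array or replicate number left out the count ran from 0 to 0 at 6 h, 0 to 2 at 12 h, 1 to 4 at 18 h, 0 to 1 for 18 against 1 h and 0 to 1 for the F test. At 18 h the gp130 signalling count of 7 became 2 with a common spread, 2 with only the arrays compared and 3 with array weights (5 to 7 with an array left out), the target count of 14 became 7 with a common spread and 3 with only the arrays compared (11 to 13), and the promoter factor count of 6 became 2 and 1 in the same order (4 to 6). Among these alternatives, the share of all probes called is given only for the unadjusted t-test. Under the others a changed count cannot be told from a change in calls over all probes. The causes were not tested. With a common spread Il6 at 18 h was 1.32 (adjusted p = 0.0516), Ctf1 0.55 (0.0701), Il6st 0.46 (0.0936) and Cntfr -0.71 (0.119). The arrays of different times that share a replicate number did not deviate together (correlations of -0.06 to 0.07, 3 of 15 arrays closest to their own number). What such arrays share beyond the number is not given in the labels, and these correlations cannot decide it. The replicate block ended the call of Il6 at 6 h (adjusted p = 0.0633) and no other member's. A filter on low signal could not be run on ratios.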
